A study of Mus musculus with 23 samples.

Results

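The genes described here carry the interferon signal from the cell surface to the nucleus. They were chosen by name: 4 receptor chains (Ifnar1, Ifnar2, Ifngr1 and Ifngr2), 3 kinases (Jak1, Jak2 and Tyk2) and 2 transcription factors (Stat2 and Irf9). All 9 were found among the 13766 genes of the deposited table. The question put to them was which of receptor, kinase and transcription factor levels moved with sex chromosomes or with gonads in mouse hippocampus.

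Type I interferons bind a receptor made of IFNAR1 and IFNAR2, which hold the kinases TYK2 and JAK1. Interferon gamma binds a receptor made of IFNGR1 and IFNGR2, which hold JAK1 and JAK2. The activated kinases phosphorylate STAT proteins. STAT2 and IRF9 are subunits of ISGF3, a complex that binds the interferon-stimulated response element and turns on antiviral genes. Pairs of STAT proteins bind a different element after interferon gamma. In the brain, microglia, astrocytes, endothelial cells and neurons can all respond to interferon.

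Hippocampal RNA was measured in 23 mice of the FCG model on a C57Bl/6J background, killed at about 12 months of age. In FCG mice the Y chromosome lacks Sry, the gene that starts testis development, and an autosomal transgene supplies it, so that gonads and sex chromosomes are passed on independently. XXF (n = 5) denotes XX animals that have ovaries, and XXM (n = 6) XX animals that have testes. XYF (n = 6) denotes XY animals that have ovaries, and XYM (n = 6) XY animals that have testes. XXM and XYM therefore carry the Sry transgene and XXF and XYF do not. The labels name no treatment. Animals were caged with others of the same genital appearance, and litter and cage were not used here. Each library came from a different animal. Gonad type cannot be told apart from the transgene, from the adult hormones that accompany it or from caging by genital appearance.

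Library totals ran from 10257751 to 36078221 estimated counts, with a median of 21831384. Levels are in CPM, the count of a gene scaled to a common library total, with totals adjusted by the trimmed mean of M-values (TMM). All 10 hippocampal neuron markers were measured in every library, with a summed level of 6524 to 8502 CPM. Xist, the RNA that silences an X chromosome, was at 936 to 1468 CPM in the XX libraries. It was at or below 2.86 CPM in the XY libraries, except for XYF replicate 4 at 94.1 CPM. The Y-linked gene Ddx3y was at 49.2 CPM or more in every XY library, XYF replicate 4 included, and at 0.437 CPM or less in XX libraries. The choroid plexus markers (9 of 10 measured) also set libraries apart, since their summed level ran from 286 to 5803 CPM, with group medians of 376 in XXF, 3656 in XXM, 337 in XYF and 397 in XYM. In bulk tissue, fewer cells of a type and less RNA per cell cannot be told apart.

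Promoter sequences of Stat2 and Irf9 are shown because they are the transcription factors of the set, on which the results below turn. Each sequence is the 250 bases before the gene's start in RefSeq (GRCm38.p6), read on the gene's strand. Capitals mark a match to the core of the interferon-stimulated response element (GAAA, any 2 bases, GAAA), which in Stat2 lies on the opposite strand and so reads as its reverse complement. No match stands in the Irf9 sequence.
Stat2 promoter, chr10:128270248-128270497, plus strand: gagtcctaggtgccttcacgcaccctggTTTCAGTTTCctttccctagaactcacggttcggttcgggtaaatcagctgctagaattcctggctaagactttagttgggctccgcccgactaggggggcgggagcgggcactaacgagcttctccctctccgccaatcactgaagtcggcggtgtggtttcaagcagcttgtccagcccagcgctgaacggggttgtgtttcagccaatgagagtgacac
Irf9 promoter, chr14:55603735-55603984, plus strand: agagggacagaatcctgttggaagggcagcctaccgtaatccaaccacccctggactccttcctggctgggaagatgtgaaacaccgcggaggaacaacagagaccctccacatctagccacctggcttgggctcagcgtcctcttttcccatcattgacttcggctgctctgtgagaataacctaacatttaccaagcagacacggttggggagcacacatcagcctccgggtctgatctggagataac

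The search covered 250 bases before to 50 after each start, on both strands, for this response element core and for TTCNNNGAA, the core of the element bound by STAT pairs. Of 32851 RefSeq promoters of that length, 3.44% held the first and 8.30% the second. Every one of the 9 members had a promoter in the table. The response element core was found in Stat2 alone among them, with its first base 222 bases before the start (position -222). TTCNNNGAA was found in Ifnar1 at -5 and in Ifnar2 at -214. Neither was found in Ifngr1, Ifngr2, the 3 kinases or Irf9. A match is a stretch of letters and not a measured binding site, and no match says only that these letters are not in this window.

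The match in Stat2 is set beside matches in genes induced by interferon, since those genes are the readout of the pathway below. Each line gives 20 bases read on the strand that holds the motif, which is in capitals.
Stat2, chr10:128270271-128270290, minus strand: gaaagGAAACTGAAAccagg
Ifit1, chr19:34640799-34640818, minus strand: agtgaGAAACTGAAActgag
Ifit3, chr19:34583402-34583421, minus strand: aagtaGAAACTGAAAcagac
Gbp3, chr3:142559994-142560013, minus strand: aaataGAAACTGAAActgtg
Isg15, chr4:156200876-156200895, minus strand: aaaagGAAACCGAAAcagaa
For each gene 1 match is shown, and for Ifit1, Ifit3 and Gbp3 it is the match with the same 10 letters as in Stat2. Ifit1, Ifit3, Gbp3 and Isg15 also hold matches with other letters, which are not shown. These genes come from the 7 interferon-stimulated genes called below for the sex chromosome effect. Of the 7, 6 had a promoter in the table and could be searched, and 5 held a match. Rsad2, the one left out, has a match with other letters than Stat2. Of the 30 interferon-stimulated genes measured, 24 had a promoter in the table and 14 of these held the response element core.

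The members differed widely in level. Per kilobase of exon, Jak1 stood highest at 53.7 CPM per kb (mean of 23 libraries). Ifnar1 followed at 20.7, Ifngr2 at 18.4, Jak2 at 10.3 and Ifngr1 at 8.32 CPM per kb. Stat2 was at 7.59, Ifnar2 at 6.06, Tyk2 at 4.72 and Irf9 at 4.05 CPM per kb. Jak1, the kinase shared by both receptors, was above Ifnar1 in 23 of 23 libraries with no overlap of the ranges, and Ifngr2 was likewise above Jak2. The other neighbours in the order overlapped: Ifnar1 was above Ifngr2 in 18 libraries, Ifngr1 above Stat2 in 16, Stat2 above Ifnar2 in 20 and Tyk2 above Irf9 in 18. Jak2 was above Ifngr1 and Ifnar2 above Tyk2 in 23 libraries each, although the ranges over all libraries overlapped.

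**Figure D1:**
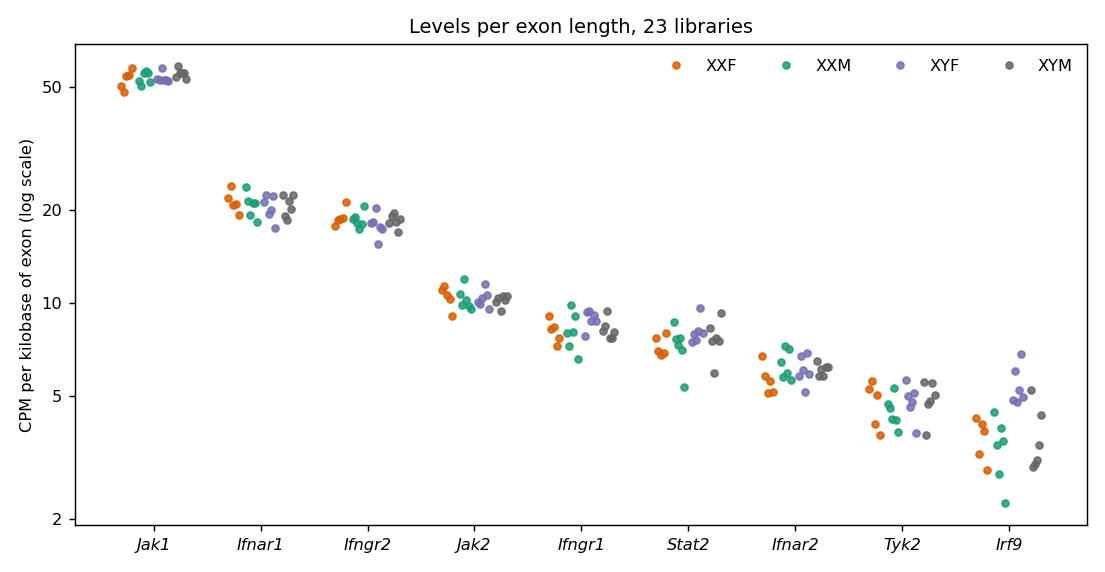
Level of each of the 9 genes in CPM per kilobase of exon (log axis), 1 point for each of the 23 libraries, coloured by group, genes in order of their mean. Jak1 stood above every other gene in every library, and Irf9 was lowest on average at 4.05 CPM per kb.

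The spread of a gene over the libraries also differed by member. The highest Jak1 library was 1.21 times the lowest, and the same ratio was 1.31 for Jak2, 1.36 for Ifngr2, 1.37 for Ifnar1 and 1.41 for Ifnar2. It was 1.502 for Ifngr1, 1.51 for Tyk2 and 1.80 for Stat2. Irf9 varied the most of the 9, with a ratio of 3.03. Within groups, the SD of log2 CPM was 0.07 for Jak1 and 0.29 for Irf9, with the other members between them.

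The receptors showed no difference that passed the test in any comparison. Ifnar1 and Ifnar2 are the chains of the type I receptor. Ifnar1 (gene ID 15975, mm10 chromosome 16, 91485215 to 91510522, plus strand) was at 83.0 ± 6.62 CPM in XXF, 81.0 ± 7.41 in XXM, 79.7 ± 7.31 in XYF and 80.5 ± 6.34 in XYM (SD, n = 5, 6, 6 and 6, as for all values below). Its libraries ran from 67.9 to 92.9 CPM and every group overlapped every other. Ifnar2 (gene ID 15976, chromosome 16, 91372783 to 91405587, plus strand) was at 17.98 ± 2.04, 20.1 ± 2.21, 19.3 ± 2.04 and 19.3 ± 0.804 CPM in the same order. Of its exon bases, 9.92% overlap a gene model on the same strand, Gm21970, so part of its count could belong to either gene. XXF had the lowest Ifnar2 mean, and the XXM minus XXF difference of 0.16 ± 0.09 (log2, SE) was the uncalled receptor or kinase difference of smallest p, with an edgeR adjusted p of 0.672. The ratio of Ifnar1 to Ifnar2, both per kilobase, averaged 3.77 ± 0.338 in XXF, 3.30 ± 0.432 in XXM, 3.37 ± 0.338 in XYF and 3.39 ± 0.240 in XYM.

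Ifngr1 and Ifngr2 are the ligand-binding and signalling chains of the interferon gamma receptor. Ifngr1 (gene ID 15979, chromosome 10, 19591958 to 19610225, plus strand) was at 17.1 ± 1.45 CPM in XXF, 17.1 ± 2.51 in XXM, 18.6 ± 1.22 in XYF and 17.3 ± 1.36 in XYM. Ifngr2 (gene ID 15980, chromosome 16, 91547094 to 91564007, plus strand) was at 70.4 ± 4.70, 68.9 ± 4.13, 66.0 ± 5.66 and 68.2 ± 3.38 CPM. XYF held the highest Ifngr1 mean and the lowest Ifngr2 mean, and all groups overlapped for both genes. The ratio of Ifngr2 to Ifngr1 per kilobase was lowest in XYF, at 2.02 ± 0.185 against 2.36 ± 0.312 in XXF, 2.34 ± 0.473 in XXM and 2.25 in XYM, a difference that was not tested.

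No kinase passed the test in any comparison either. Jak1 (gene ID 16451, chromosome 4, 101151974 to 101265282, minus strand) was at 259.5 ± 17.9 CPM in XXF, 262 ± 11.5 in XXM, 262 ± 9.99 in XYF and 270.4 ± 9.30 in XYM. Jak2 (gene ID 16452, chromosome 19, 29251828 to 29313080, plus strand), which acts at the interferon gamma receptor, was at 52.4 ± 4.33, 51.8 ± 4.42, 51.8 ± 3.45 and 51.2 ± 2.15 CPM. Tyk2 (gene ID 54721, chromosome 9, 21104068 to 21131275, minus strand), which acts at the type I receptor, was at 26.3 ± 4.46, 24.8 ± 2.89, 26.7 ± 3.37 and 27.1 ± 3.67 CPM. For each kinase every group overlapped every other.

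**Figure D2:**
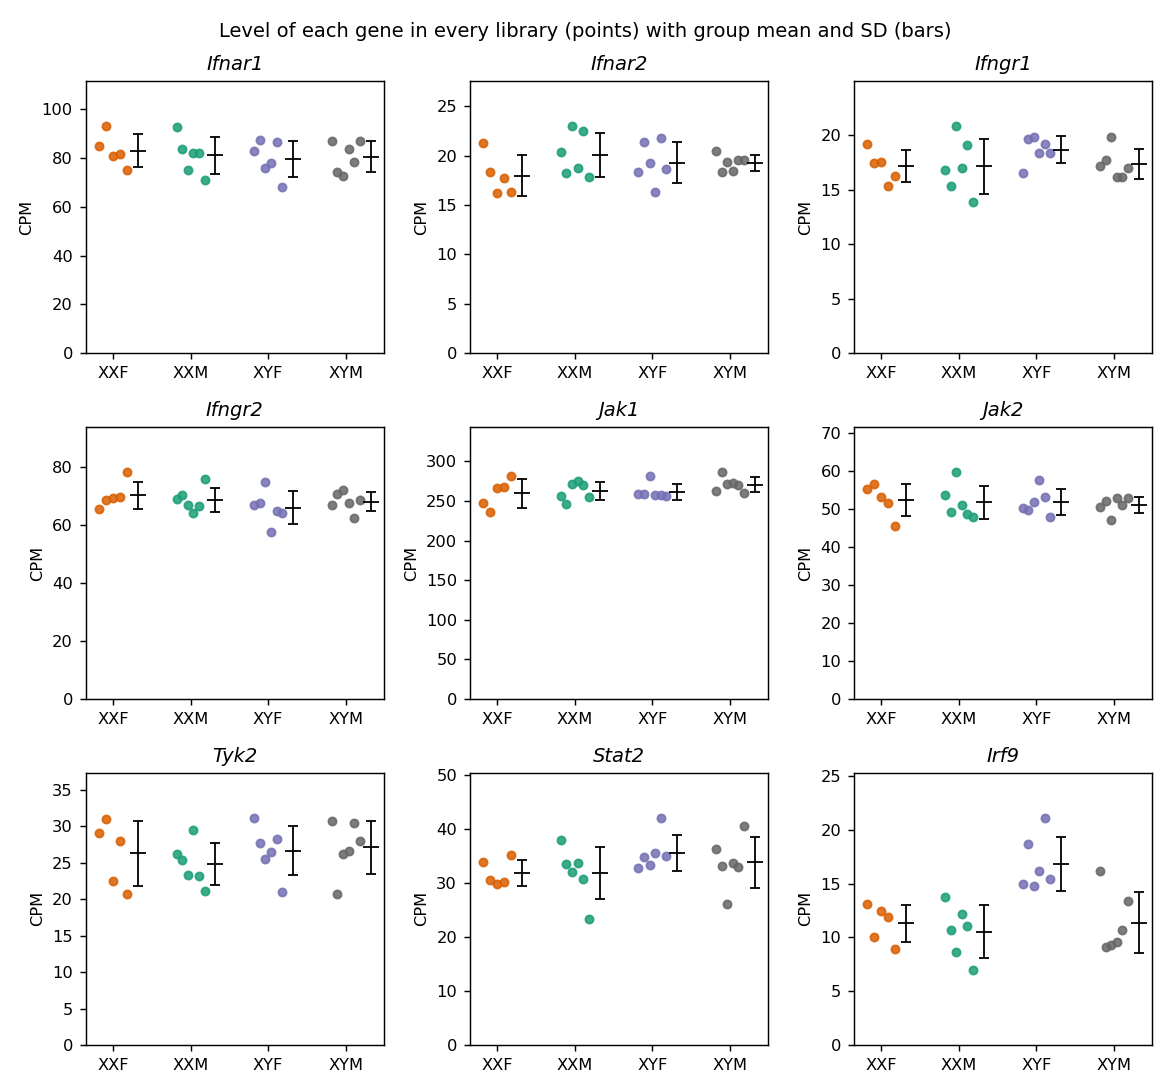
CPM of each of the 9 genes by group (1 point per library, with the group mean and SD), each panel with its own axis. The groups overlap for the receptors, the kinases and Stat2, while all 6 XYF libraries of Irf9 lie at 14.8 CPM or more, above every XXF and XXM library.

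Stat2 and Irf9 encode subunits of ISGF3. Stat2 (gene ID 20847, chromosome 10, 128270576 to 128292849, plus strand) was at 33.9, 30.6, 29.8, 30.2 and 35.2 CPM in the XXF libraries. In XXM its values were 38.0, 33.5, 32.04, 33.7, 30.8 and 23.4 CPM. In XYF they were 32.8, 34.8, 33.4, 35.5, 42.1 and 35.0 CPM, and in XYM 36.4, 33.1, 26.1, 33.7, 33.1 and 40.7 CPM. XYF had the highest mean, 35.6 ± 3.34 CPM against 31.9 ± 2.42 in XXF, 31.9 ± 4.83 in XXM and 33.8 ± 4.798 in XYM, but its libraries overlapped those of every other group.

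Irf9 encodes the subunit that directs ISGF3 to its DNA element. It lies on chromosome 14 (gene ID 16391, 55603985 to 55610030, plus strand), and 3.97% of its exon bases overlap Rnf31 on the same strand. Its XXF libraries were at 13.1, 10.03, 12.5, 11.9 and 8.93 CPM. Its XXM libraries were at 13.7, 10.7, 8.64, 12.2, 11.1 and 6.96 CPM. Its XYF libraries were at 14.98, 18.7, 14.8, 16.2, 21.1 and 15.4 CPM, and its XYM libraries at 16.2, 9.09, 9.28, 9.61, 10.7 and 13.4 CPM. The lowest XYF library (14.8 CPM) was above the highest XXF library (13.1 CPM) and the highest XXM library (13.7 CPM), while XYM replicate 1, at 16.2 CPM, reached into the XYF range. Group means were 11.3 ± 1.75 CPM in XXF, 10.6 ± 2.43 in XXM, 16.8 ± 2.53 in XYF and 11.4 ± 2.85 in XYM. No other member had any pair of groups without overlap. Over all genes, XYF lay wholly above XXF for 0.552% and wholly above XXM for 0.523%.

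The sex chromosome effect is XY minus XX, averaged over gonads. None of the 9 members passed an adjusted p of 0.05 in edgeR's quasi-likelihood test, against 0.283% of all genes (39 of 13766). Irf9 came nearest, with a log2 difference of 0.34 ± 0.11 (SE, approximate 95% interval 0.11 to 0.57), an unadjusted p of 0.00563 and an edgeR adjusted p of 0.475. Stat2 differed by 0.12 ± 0.07 (interval -0.02 to 0.27, edgeR adjusted p of 0.832). The receptors and kinases lay between -0.05 and 0.08. The intervals of these 7 genes together reached from -0.14 (Ifngr2) to 0.24 (Tyk2), that is, folds of 0.909 to 1.18. Differences of that size or less could not be told from 0. The median of the 9 was 0.03, with 6 higher, and the median of all genes was 0.00.

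The gonad effect is testes minus ovaries, averaged over sex chromosomes, and uses the same libraries. None of the members was called, against 0.16% of all genes (22 of 13766). Irf9 again came nearest with -0.33 ± 0.11 (interval -0.56 to -0.10, unadjusted p of 0.00670, edgeR adjusted p of 0.217). Stat2 was at -0.03 ± 0.07 (edgeR adjusted p of 0.865). The receptors and kinases lay between -0.05 and 0.08, and their intervals reached from -0.19 (Tyk2) to 0.20 (Ifnar2), folds of 0.878 to 1.15. The median of the 9 was -0.02, with 3 higher, and the median of all genes was -0.00.

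The interaction asks whether the gonad difference depends on the sex chromosomes. None of the members and 0% of all genes were called by edgeR, with 444 genes at an unadjusted p under 0.05, and DESeq2 called 0 as well. Without XYF replicate 1 edgeR called 1 gene and without XYM replicate 1 it called 3, none of them a member. For Irf9 the gonad difference in XY minus that in XX was -0.45 ± 0.23 on the log2 scale (interval -0.91 to 0.01, unadjusted p of 0.0571, edgeR adjusted p of 0.999). The intervals of the receptors and kinases reached from -0.40 (Ifnar2) to 0.43 (Tyk2), so this comparison bounds them less closely than the averaged effects.

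Pairs of groups were then compared, and these comparisons share groups, so their values stand side by side and are not independent. Irf9 was higher in XYF than in XXM by 0.67 ± 0.15 (log2, fold 1.59, interval 0.35 to 0.99), with an edgeR adjusted p of 0.0403. This was the only call among the 9 members in the 9 comparisons made, and 0.501% of all genes were called in that pair (0.458% higher). The pair differs in both sex chromosomes and gonads, and the call did not hold throughout: it was lost in 4 of 8 other settings and on leaving out any of 12 of the 23 libraries. These were XXF replicates 1 and 4, XXM replicates 2 to 6, XYF replicates 2, 4, 5 and 6 and XYM replicate 5. The edgeR adjusted p was at most 0.133, without XXM replicate 3, and was 0.0642 without XYF replicate 4. The log2 difference itself stayed between 0.58 and 0.76 in those 23 fits. Log2 choroid plexus and microglia scores as covariates gave 0.85 and 0.77, with edgeR adjusted p of 0.000458 and 0.0433.

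**Figure D3:**
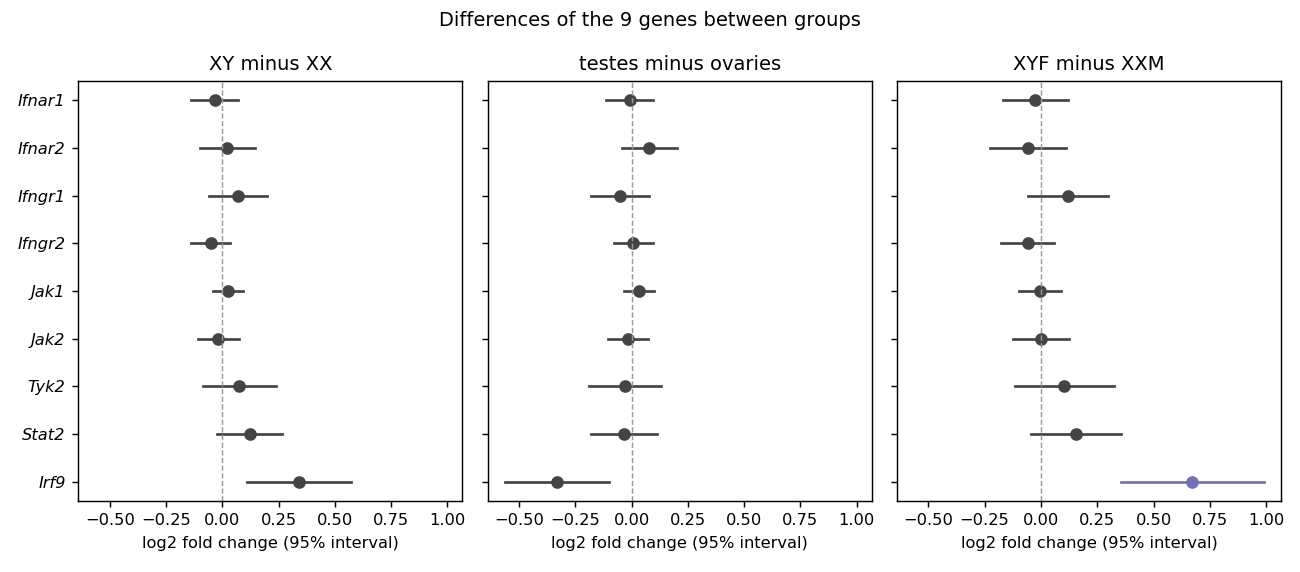
Log2 differences of the 9 genes with approximate 95% intervals from edgeR, for XY minus XX, for testes minus ovaries and for XYF minus XXM, with the single call coloured. The receptor and kinase intervals include 0 in each panel, and the Irf9 interval leaves it out in all 3 (0.11 to 0.57, -0.56 to -0.10 and 0.35 to 0.99).

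In the other pairs Irf9 did not pass. XYF minus XXF was 0.56 ± 0.16 (fold 1.48, edgeR adjusted p of 0.321), where 0.291% of all genes were called. XYM minus XYF was -0.56 ± 0.15 (fold 0.680, edgeR adjusted p of 0.246), where 0.225% were called. Without XYM replicate 1, the library that reached the XYF range, this difference was -0.69 with an edgeR adjusted p of 0.0347. The groups other than XYF lay close together: XYM minus XXM was 0.12 ± 0.15, XXM minus XXF was -0.11 ± 0.16 and XYM minus XXF was 0.01 ± 0.16. In these 3 pairs 0.116%, 0% and 0.131% of all genes were called; for XXM minus XXF, where edgeR called 0, 1061 genes had an unadjusted p under 0.05 and DESeq2 called 1.

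The 9 members were also compared 1 by 1 with a 2-sided exact permutation test of mean log2 CPM, which needs no model of the spread. For Irf9 the exact p was 0.00217 for XYF against XXF and 0.00217 for XYF against XXM, the smallest that the 462 and 924 assignments allow. It was 0.0108 for XYM against XYF by the same exact test. With labels permuted within gonad or within sex chromosome type, the exact p was 0.0156 for the sex chromosome effect and 0.0140 for the gonad effect. For the other 3 pairs the exact p of Irf9 was 0.589 (XYM against XXM), 0.541 (XXM against XXF) and 0.961 (XYM against XXF). With the exact p-values adjusted by Benjamini-Hochberg over all 72 such tests, none passed 0.05: the smallest was 0.0779, for Irf9 in XYF against each XX group, and the next was 0.225. For Stat2 the smallest exact p was 0.0628, in XYF against XXF.

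The rest of the pathway was read from lists chosen by function. Of 6 other JAK and STAT genes described here, 5 were measured and edgeR called 0 of them for either averaged effect. At an unadjusted p under 0.05 were 1 and 0 of them, against 6.78% and 13.6% of all genes. The medians of the list were -0.03 for the sex chromosome effect and -0.04 for the gonad effect. The gene of smallest p was Stat5b, which acts for growth hormone and several cytokines, at 26.8 ± 1.82 CPM in XXF, 24.1 ± 1.05 in XXM, 23.3 ± 3.07 in XYF and 22.8 ± 2.07 in XYM. Its sex chromosome effect was -0.14 ± 0.06 (edgeR adjusted p of 0.609). Next came Jak3, the kinase of the common gamma chain receptors, with a gonad effect of -0.15 ± 0.13 (edgeR adjusted p of 0.658).

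No receptor of the wider family passed the test for an averaged effect. Of 16 other cytokine receptors that signal through JAKs, 14 were measured and 0 were called by edgeR for either averaged effect, with 0 and 1 genes at an unadjusted p under 0.05. Their median was 0.04 for the sex chromosome effect and -0.01 for the gonad effect. Il10rb, a chain of the interleukin-10 and interferon lambda receptors, lies in the same receptor family and differed by -0.13 (edgeR adjusted p of 0.908) and -0.05 (0.863). The genes of smallest p were Osmr, the oncostatin M receptor, with a gonad effect of 0.20 (edgeR adjusted p of 0.254), and Il6ra, the interleukin-6 receptor, with a sex chromosome effect of 0.18 (edgeR adjusted p of 0.760). Ifnlr1, the other chain of the interferon lambda receptor, was not analysed here.

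Among 19 negative regulators of the pathway, 18 were measured and Usp18 alone was called. Of all genes 0.283% were called for the sex chromosome effect and 0.16% for the gonad effect. USP18 removes ISG15 from proteins and dampens signalling at IFNAR2. Usp18 was at 1.54 ± 0.583 CPM in XXF, 1.10 ± 0.316 in XXM, 5.26 ± 1.27 in XYF and 1.48 ± 0.839 in XYM. Its lowest XYF library, at 3.34 CPM, was above the highest library of any other group, 2.95 CPM in XYM. Over all genes, XYF lay wholly above XXF for 0.552% and wholly above XXM for 0.523%. XYF and XYM did not overlap, in either direction, for 0.341%. The deposited table kept genes by their level in at least 1 group, so Usp18 may have entered it through XYF alone, which was not checked. The sex chromosome effect of Usp18 was 1.13 ± 0.22 (edgeR adjusted p of 0.0141) and its gonad effect -1.10 ± 0.22 (edgeR adjusted p of 0.0300). The gonad call was lost without XXF replicate 1, 2 or 3, XXM replicate 1, 3 or 5, XYF replicate 3, or XYM replicate 2 or 5 (highest edgeR adjusted p 0.0986, without XXF replicate 3), with limma voom (0.0620) and with the microglia score as a covariate (0.154). The medians of the list were 0.01 and -0.04.

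Of 11 other interferon regulatory factors and partners, 10 were measured. Irf7, which drives further interferon production, was the only one called. It was at 2.14 ± 0.613 CPM in XXF, 1.86 ± 0.472 in XXM, 7.07 ± 1.72 in XYF and 2.52 ± 1.42 in XYM. XYF libraries started at 4.35 CPM and XYM reached 5.06 CPM, so these 2 groups overlapped. Whether Irf7 entered the deposited table through XYF alone was not checked. The sex chromosome effect of Irf7 was 1.09 ± 0.20 (edgeR adjusted p of 0.00631), and its gonad effect of -0.85 ± 0.20 was not called (edgeR adjusted p of 0.0913). That effect was called without XXF replicate 5, XYF replicate 1 or XYM replicate 1, with edgeR adjusted p of 0.0494, 0.0417 and 0.00371. It was also called with DESeq2 (0.00998), with voom and quality weights (0.0219) and with the choroid plexus covariate (0.0174). The medians of the list were -0.03 and -0.09. None of 11 interferon genes themselves was among the genes analysed here.

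The genes that ISGF3 turns on were read from a list of 36 interferon-stimulated genes, 30 of them measured. For the sex chromosome effect 30 of 30 were higher, 7 were called and the median was 0.39, against 0.00 for all genes. Of all genes 0.283% were called for that effect. For the gonad effect 28 of 30 were lower, 8 were called lower and the median was -0.43, with 0.16% of all genes called. The list was drawn up with earlier results of these data known, so its direction is not independent evidence. Genes of low level on it may also have entered the deposited table through XYF alone, which was not checked. A gene that did so would tend to be high in XYF by that selection, so the counts and medians here are descriptions. In single pairs, 10 were called higher in XYF than in XXF (median 0.75), 14 higher in XYF than in XXM (median 0.80) and 13 lower in XYM than in XYF (median -0.74). Of all genes 0.291%, 0.501% and 0.225% were called in these pairs, in either direction. Between XYM and XXM and between XXM and XXF edgeR called 0. There 4 and 5 genes had an unadjusted p under 0.05 (5.29% and 7.71% of all genes), and the medians were 0.10 and -0.07. Without XYF replicate 4 the counts were 6 and 7 for the averaged effects and 9, 13 and 11 for these pairs. Without XYF replicate 5 the count for XYM minus XYF was 7, and without XYM replicate 2, 4, 5 or 6 it was 8. With the microglia score as a covariate it was 4 for that pair and 5 for the gonad effect, and with the choroid plexus score the counts were 20 and 15.

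Named by smallest p, the sex chromosome calls were led by Gbp3, a guanylate-binding protein, at 0.78 ± 0.09 (edgeR adjusted p of 6.67e-06), and by Ifit3 at 1.06 ± 0.13. IFIT proteins bind viral RNA and proteins. Oasl2 was at 1.18 ± 0.17, Iigp1, an immunity-related GTPase, at 1.03 ± 0.17, and Ifit1 at 1.03 ± 0.17. Ifit1 was at 3.54 ± 1.12 CPM in XXF, 2.34 ± 0.579 in XXM, 10.8 ± 2.48 in XYF and 3.16 ± 1.45 in XYM. For the gonad effect the leading calls were Gbp3 at -0.67, Ifit1 at -1.16, Isg15, a ubiquitin-like modifier, at -0.86, Ifit3 at -0.78 and Gbp7 at -0.49. In XYF minus XXM, 17 of the 30 differed by more than Irf9 on the log2 scale, and 20 of the 30 did so in XYF minus XXF.

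**Figure D4:**
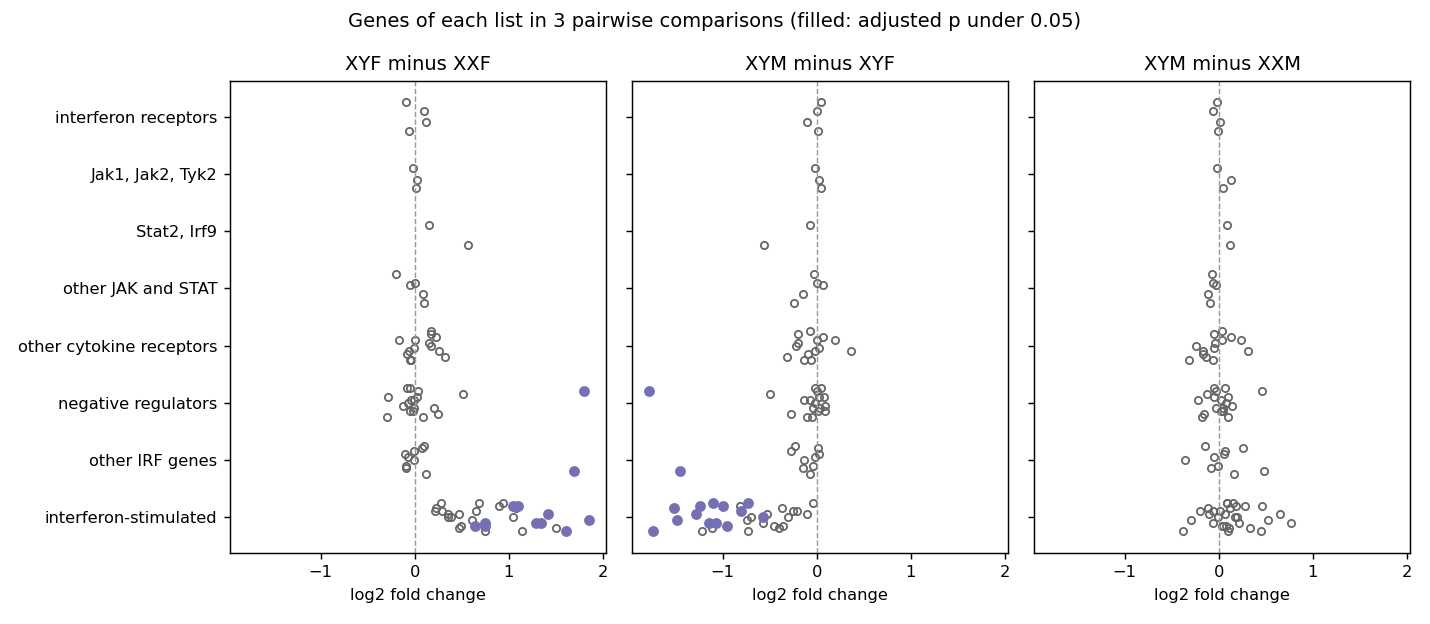
Log2 differences of single genes, 1 point per gene, in the members and each pathway list for XYF minus XXF, XYM minus XYF and XYM minus XXM, with filled points called by edgeR. Filled points are Usp18, Irf7 and 10 interferon-stimulated genes in the left panel, the same pair of single genes and 13 interferon-stimulated genes in the middle panel, and none in the right panel.

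The levels of Irf9 and Stat2 were then set beside these genes library by library. The summed CPM of the 30 interferon-stimulated genes ran from 177 to 208 in XXF, 168 to 216 in XXM, 245 to 409 in XYF and 180 to 279.7 in XYM. Its Pearson correlation with Irf9 in log2 values was 0.82 (Spearman 0.72, n = 23), 0.77 without the 2 libraries farthest from the median. Within groups it was 0.57 when pooled. By group it was 0.62 in XXF (n = 5), 0.29 in XXM, 0.78 in XYF and 0.74 in XYM. With Stat2 it was 0.46 (Spearman 0.31), 0.33 without the 2 farthest and 0.35 within groups when pooled. By group it was 0.01 in XXF, 0.40 in XXM, 0.84 in XYF and 0.13 in XYM. The difference between the correlations was not tested. The highest XYM library on the list, replicate 1, was also the highest XYM library of Irf9. Its choroid plexus marker sum, 4631 CPM, was the highest in XYM. The top Irf9 libraries of the other groups also had high sums: 3290 CPM in XXF replicate 1, 3804 in XXM replicate 1 and 5803 in XYF replicate 5. XXM replicate 3, at 4722 CPM of these markers, was at 8.64 CPM of Irf9. A link between these markers and Irf9 over libraries was not tested. The correlations are descriptions over libraries that share depth and tissue make-up, and the group differences enter them.

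**Figure D5:**
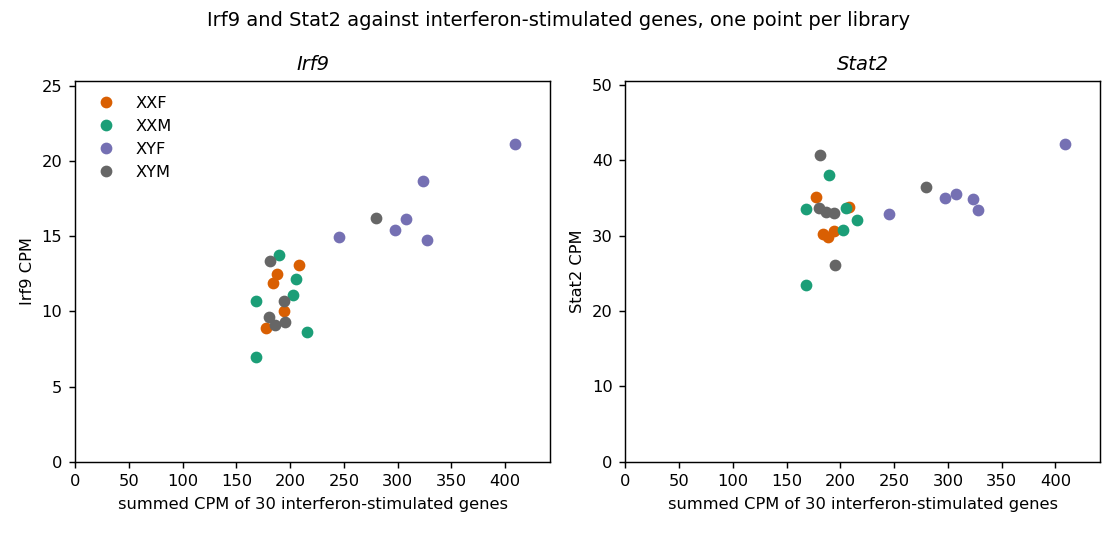
CPM of Irf9 (left) and Stat2 (right) against the summed CPM of 30 interferon-stimulated genes, 1 point per library, coloured by group, on linear axes. The XYF libraries, at 245 to 409 CPM on the horizontal axis, lie at 14.8 CPM or more of Irf9. Their Stat2 levels, 32.8 to 42.1 CPM, overlap those of every other group.

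By Pearson correlation of log2 CPM over the 23 libraries, the 5 genes most like Irf9 of all others were Nlrc5 (0.84, 0.70 within groups), Ifit1 (0.83, 0.62), Isg20 (0.83, 0.67), Ddx60 (0.82, 0.62) and Trim30d (0.81, 0.61). NLRC5 is known as an activator of MHC class I genes, and ISG20 as an RNA exonuclease. Among the members, Stat2 and Irf9 correlated at 0.68 (0.68 within groups, 0.54 without the 2 farthest libraries). By group this ran from -0.39 in XXF to 0.90 in XXM. Ifnar1 and Tyk2, a receptor chain and the kinase it holds, also correlated at 0.68 (0.73 within groups). The other such pairs did not go together in this way: Ifnar2 and Jak1 were at -0.07, Ifngr1 and Jak1 at 0.15 and Ifngr2 and Jak2 at -0.49. Ifnar1 and Irf9, which are not such a pair, were at 0.40 (0.71 within groups). Ifnar2 and Ifngr1 correlated at 0.54, and Ifngr2 and Irf9 at -0.51.

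The RNA levels of these ISGF3 subunit genes were set against each other as the ratio of Irf9 to Stat2, both per kilobase. It was 0.505 ± 0.0941 in XXF, 0.465 ± 0.0552 in XXM, 0.669 ± 0.0546 in XYF and 0.476 ± 0.0871 in XYM. The XYF ratios ran from 0.624 to 0.760 and the XYM ratios from 0.389 to 0.631, so the groups overlapped at the edge. The difference in this ratio was not tested. It is a ratio of RNA levels in bulk tissue, and neither protein levels nor the make-up of ISGF3 was measured.

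Markers of cell types that could carry these genes are given beside the Irf9 result. The 12 microglia markers were all measured and edgeR called 0 for either averaged effect. At an unadjusted p under 0.05 were 0 and 6 of them, against 6.78% and 13.6% of all genes. The medians of these markers were 0.07 and -0.17. Their summed level was 533 to 599.9 CPM in XXF, 515 to 617 in XXM, 558 to 709 in XYF and 513 to 638 in XYM. It correlated with Irf9 at 0.20 over the 23 libraries and at -0.35 within groups. The choroid plexus markers had 0 calls, with medians of -0.52 and 0.75. In XYF minus XXM, the pair of the Irf9 call, 9 of 12 microglia markers were higher and 5 had an unadjusted p under 0.05, with a median of 0.22. Over all genes 10% had such a p there. All 9 choroid plexus markers were lower there, with a median of -1.26 and 1 at an unadjusted p under 0.05. In XYM minus XYF, 10 of 12 microglia markers were lower and 7 had an unadjusted p under 0.05, with a median of -0.24. Over all genes 8.63% had such a p in that pair, so the microglia markers exceeded the share of all genes in both pairs. No marker of these lists was called by edgeR in either pair. The 8 astrocyte, 8 oligodendrocyte and 10 endothelial and mural markers also had 0 calls. No measured marker was at 0 in any library, and none of the 12 blood leukocyte markers was among the genes analysed here. The part of cell make-up in the Irf9 values beyond these covariates was not tested.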

How the data were processed

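Hippocampal RNA of 23 mice was sequenced from rRNA-depleted, strand-specific libraries, per the labels' protocols. The authors deposited 1 table of estimated counts per gene and normalized log2 values. Its rows are genes that, per the file headers, reached a raw value of 20 in 100% of the samples of at least 1 of the 4 groups. DESeq and mm10 are named in the submitters' processing notes. Not given in the sources used here are the aligner, the counter and whether counting used strand. Estimated counts were rounded to whole numbers. In R (version 4.3.3), edgeR (version 4.0.16) quasi-likelihood tests with TMM scaling were fitted to all 13766 genes and 23 libraries, with 1 mean per group and a shared spread. filterByExpr removed 0 genes. P-values were Benjamini-Hochberg adjusted over all genes, and a gene was called under 0.05. SEs were derived from the edgeR F statistic and are approximate, as are the 95% intervals. Log2 CPM used a prior count of 2. Exon lengths came from the GENCODE basic annotation of GRCm38 and promoters from RefSeq GRCm38.p6. Each library is a separate animal, and replicate numbers follow accession order and only name libraries. Libraries of a group differed by more than sampling noise (lowest chi-square per gene 4.30) and correlated at 0.983 to 0.996 (Spearman).

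Members and lists were chosen with earlier results of these data known. Named were all members, each list gene called for an averaged effect (at most the 5 of smallest p for a list and contrast, or the 2 of smallest p where none was called), Il10rb, and the 5 genes most like a called member. Results of 1 further gene that this rule names are left out. Alternatives were DESeq2 (version 1.42.0), no TMM, limma (version 3.58.1) voom without and with sample quality weights, limma on the deposited log2 values, a filter of at least 5 CPM on the mean, the choroid plexus score as a covariate, and leaving out each library. The microglia covariate, and all alternatives for the interferon-stimulated counts, Usp18 and Irf7, were chosen after seeing the data. The steps were tested on simulated data.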

Additional observations from a re-analysis of the deposited data

Results flagged for a closer look

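In each of the 36 gene and group sets (9 genes in 4 groups), the highest and the lowest library were set against the others. In 2 sets 1 library stood apart, and chance gives about 1 in 20. Jak1 in XYF replicate 3 was at 282 CPM, while the other XYF libraries ran from 256 to 259 CPM, so that the gap was 0.895 of the whole range (beyond Dixon's 95% critical value). Stat2 in XYF replicate 5 was at 42.1 CPM against 32.8 to 35.5 CPM in the others, a gap of 0.707 of the range. XYF replicate 5 also held the highest Irf9 value, 21.1 CPM, and the highest choroid plexus marker sum, 5803 CPM.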

How the results depend on the processing

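The Irf9 call in XYF minus XXM passed in 4 of 8 other settings: DESeq2 (adjusted p 0.00356), voom (0.0248) and the choroid plexus (0.000458) and microglia (0.0433) covariates. Members called fell from 1 to 0 without TMM (edgeR adjusted p 0.0573), with quality weights (0.0506), on the deposited log2 values (0.0568) and with the 5 CPM filter (0.0674). Leaving out 1 library gave 0 to 1 members called for that pair and 0 to 1 for XYM minus XYF. For the sex chromosome effect, the choroid plexus covariate gave 1 (Irf9, 0.42, edgeR adjusted p 0.0417). Differences near 0 changed sign without a call. For the sex chromosome effect, Jak2 was 0.00383 with the choroid plexus covariate and -0.0390 to 0.00435 without single libraries. For the gonad effect without single libraries, Ifnar1 was -0.0303 to 0.0121, Ifngr2 -0.0101 to 0.0284, Tyk2 -0.0631 to 0.00388 and Stat2 -0.0643 to 0.00367, and with quality weights Ifngr2 was -0.0115 and Stat2 0.0250. For the interaction, Ifnar1 was -0.00217 with quality weights and -0.00765 with the microglia covariate, Jak2 was -0.00498 without TMM, -0.0540 with the microglia covariate and -0.0206 to 0.0508 without single libraries, and Stat2 was 0.0337 with the choroid plexus covariate. Irf9 in XYM minus XXM was -0.0136 to 0.206 without single libraries. Irf9 in XYM minus XXF was -0.00763 with voom, -0.0218 with quality weights, -0.00766 on the deposited log2 values, -0.000946 with the choroid plexus and -0.0246 with the microglia covariate, and -0.121 to 0.0679 without single libraries. The interferon-stimulated genes called for the sex chromosome effect (7) were 4 with the 5 CPM filter, which tests fewer of them, 14 with the choroid plexus covariate and 5 to 9 without single libraries. For the gonad effect (8) they were 5, 15 and 7 to 10, and 5 with the microglia covariate. They were 16 and 8 to 14 for XYF minus XXF (10) with the choroid plexus covariate and without single libraries. For XYM minus XYF (13) they were 8, 20, 4 with the microglia covariate and 7 to 19. For XYF minus XXM (14) they were 8, 22 and 12 to 17. Over all genes, the gonad effect had 22 calls, against 98 with DESeq2, 76 with quality weights, 44 with the choroid plexus and 14 with the microglia covariate, and 11 with the filter. The sex chromosome effect had 39, against 60, 68 and 64 with the first 3. XYM minus XYF had 31, against 47 with DESeq2, 18 with the filter and 6 with the microglia covariate. XYF minus XXM had 69, against 43 with the filter. XYM minus XXF had 18, against 51 with DESeq2 and 123 with quality weights. Without single libraries the gonad effect had 17 to 85 (85 without XXF replicate 5, 49 without XYM replicate 1, 42 without XYF replicate 1 and 34 without XYF replicate 5). XYM minus XYF had 19 to 50 (50 without XYM replicate 1, 20 without XYF replicate 2 or XYM replicate 2, and 19 without XYM replicate 4, 5 or 6). XYM minus XXF had 12 to 36 (36 without XYM replicate 6), and no other pair or averaged effect moved by over 1.5 times. The causes were not tested. No paired analysis was possible because the labels give no replicate numbers shared between groups. Usp18 and Irf7 lost their XYM minus XYF calls with the microglia covariate (0.0711 and 0.226), and Usp18 its sex chromosome call on the deposited log2 values (0.0787).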
